A study of Rattus norvegicus with 24 samples.

Results

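Transcripts of 10 genes that sense microbial and damage-derived molecules were followed in rat skin: the Toll-like receptors Tlr2, Tlr3, Tlr4, Tlr5, Tlr7, Tlr8 and Tlr9, the co-receptor Cd14, the adaptor Myd88 and the lectin receptor Clec7a. They were found by their names in the deposited table, in which each name had 1 row, and make up 10 of 23095 genes. All 10 passed the filter on low counts that left 14763 genes for testing. The dorsal skin of Sprague-Dawley rats was sampled 7 days after injection of T-gel, a biodegradable polymer, or of saline, placed either intradermally (ID) or subcutaneously (SC). Each of the 4 groups (ID saline, ID gel, SC saline, SC gel) held 6 strand-specific mRNA libraries, 24 in all, and the study asked how the response to the gel depends on its site. Age, sex and further composition of the gel are not stated, and nothing in the labels says that the libraries of a group came from separate animals, so p-values here measure the spread between these samples, which may be technical.

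Toll-like receptors are membrane proteins of macrophages, dendritic cells and other cells that recognise conserved microbial structures and molecules released by damaged tissue. Those at the cell surface bind lipoproteins, lipopolysaccharide or flagellin, and those in endosomes bind nucleic acids. Most of them signal through Myd88 to NF-kappaB and IRF transcription factors, whereas Tlr3 uses another adaptor. Clec7a, also called dectin-1, binds fungal beta-glucan and signals through the kinase Syk. In skin, such receptors are carried by resident and recruited myeloid cells and, for some of them, by keratinocytes.

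The start-site windows of 4 genes are shown because Clec7a, Tlr2 and Cd14 had the largest changes after gel and Tlr3 the smallest. Each holds the 250 bases before and the 50 after the RefSeq start of the gene in build GRCr8, read 5′ to 3′ on the strand of the gene, and capitals mark motif matches. They lie at chr2:171504508-171504807 (minus strand) for Tlr2, chr18:28611109-28611408 (minus strand) for Cd14, chr4:164599778-164600077 (minus strand) for Clec7a and chr16:53554666-53554965 (plus strand) for Tlr3.
Tlr2: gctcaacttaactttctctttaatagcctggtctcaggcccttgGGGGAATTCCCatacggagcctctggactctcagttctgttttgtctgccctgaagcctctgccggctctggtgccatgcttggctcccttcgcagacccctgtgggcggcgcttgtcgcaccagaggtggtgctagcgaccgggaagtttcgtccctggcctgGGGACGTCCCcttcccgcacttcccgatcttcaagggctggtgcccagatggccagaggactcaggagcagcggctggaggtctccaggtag
Cd14: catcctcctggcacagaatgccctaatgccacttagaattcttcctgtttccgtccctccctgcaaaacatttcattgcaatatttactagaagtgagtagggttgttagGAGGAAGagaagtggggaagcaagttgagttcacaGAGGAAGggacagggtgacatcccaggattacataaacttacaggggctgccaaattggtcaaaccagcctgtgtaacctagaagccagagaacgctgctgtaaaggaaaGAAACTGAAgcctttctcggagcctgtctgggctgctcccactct
Clec7a: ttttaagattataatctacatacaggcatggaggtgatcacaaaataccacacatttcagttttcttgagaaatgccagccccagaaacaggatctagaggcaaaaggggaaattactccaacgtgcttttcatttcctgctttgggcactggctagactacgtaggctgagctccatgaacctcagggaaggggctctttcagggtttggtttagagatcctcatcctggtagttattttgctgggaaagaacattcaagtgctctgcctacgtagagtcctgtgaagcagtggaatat
Tlr3: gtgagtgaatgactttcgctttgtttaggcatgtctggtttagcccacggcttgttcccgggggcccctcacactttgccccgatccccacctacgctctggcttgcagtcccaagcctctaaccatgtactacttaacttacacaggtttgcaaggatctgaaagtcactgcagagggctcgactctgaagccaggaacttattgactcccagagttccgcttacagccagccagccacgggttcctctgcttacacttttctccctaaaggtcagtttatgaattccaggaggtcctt
Both strands were searched for 5 motifs: NF-kappaB, PU.1 (GAGGAAG), AP-1 (TGANTCA), IRF (GAAANNGAA) and C/EBP (TTGCNNAA). Among the 10 windows, the NF-kappaB motif was found in that of Tlr2, with 2 overlapping matches that begin at base -206 and -205 from the start and another at -42. It occurs in 7.51% of the 33469 windows of the table. The PU.1 motif, present in 12.4% of all windows, occurred in those of Tlr4, Tlr9 and Cd14, and the IRF motif, present in 9.71%, in those of Tlr8, Cd14 and Myd88. The AP-1 motif (7.33% of all windows) occurred in the windows of Tlr9 and Myd88, and the C/EBP motif (10.6%) in those of Tlr7 and Tlr8. The windows of Tlr3, Tlr5 and Clec7a held none of these letters. No match of one motif overlapped a match of another, and a match describes letters, not binding.

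After intradermal gel, transcripts of all 10 genes were higher than after intradermal saline (10 of 10 called higher at an adjusted p under 0.05), against a background of 36.6% of all tested genes called higher and 37% called lower. After subcutaneous gel, 4 of 10 were called higher (Clec7a, Tlr2, Cd14 and Myd88), against a background of 24.7% higher and 26.1% lower, and 6 did not pass the test. The median log2 fold change of the 10 genes was 1.73 at the ID site and 0.32 at the SC site, beside medians of -0.014 and -0.004 over all tested genes. The difference between the gel effects (ID minus SC) was above 0 for all 10, with a background of 32.8% of genes called above 0 and 23% called below. For 1 gene, Tlr3, that call depended on the scaling of the libraries. It was also lost with no filter (0.45, adjusted p = 0.0561) and on leaving out any 1 of 17 of the 24 libraries. Adjusted p-values are from the quasi-likelihood test of edgeR, adjusted after Benjamini and Hochberg over the 14763 genes. Levels are CPM, counts brought to 1 library size with TMM factors, and each group has n = 6. With RLE size factors, the DESeq2 Wald test, library totals alone, FPKM, a fit of the SC groups alone or ID saline as control, and without SC saline replicate 2, the count at the SC site was 5, with Tlr8 added. At the ID site the count was 9, without Tlr3, with RLE size factors, the DESeq2 Wald test, library totals alone or SC saline as control.

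**Figure D1:**
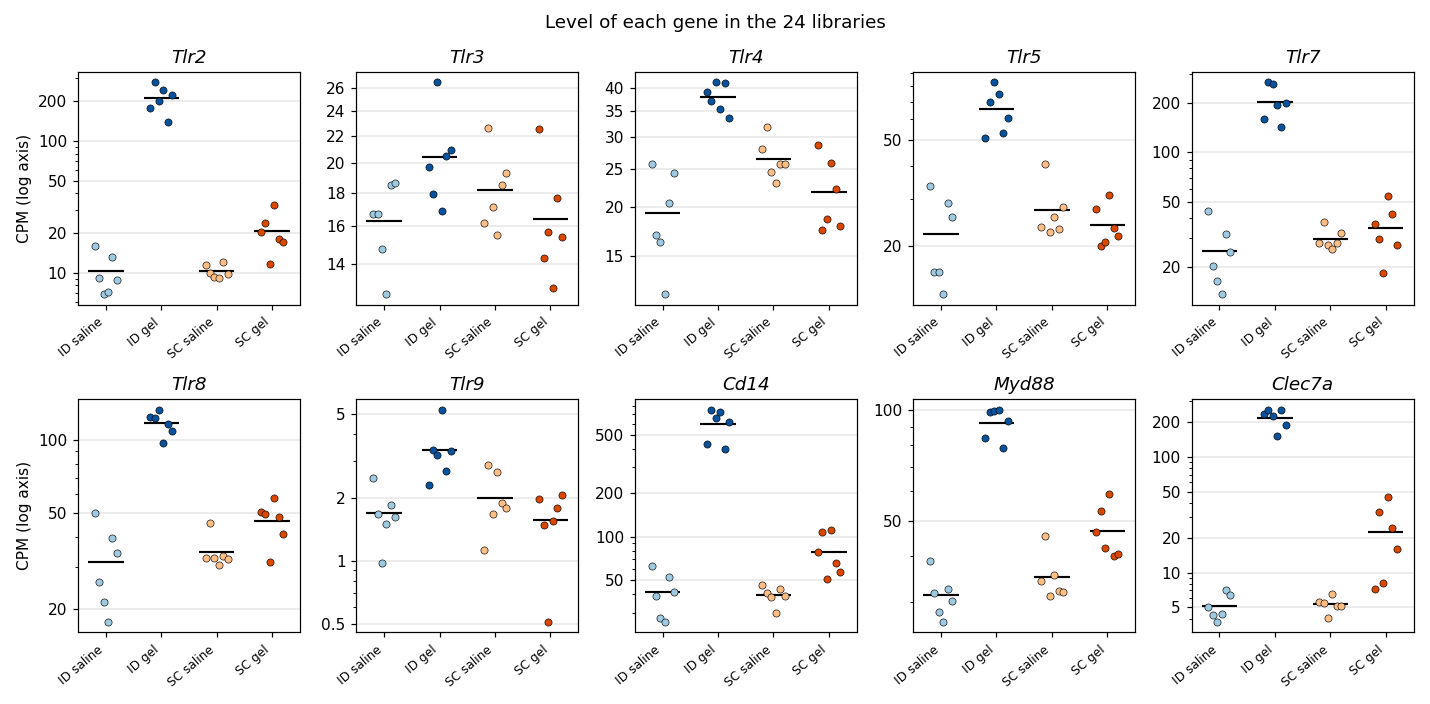
CPM of each gene in every library on a log axis, by group, with 1 point per library and a line at the group mean. All 6 ID gel libraries lie above all 6 ID saline libraries for 8 genes, and the groups overlap for Tlr3 and Tlr9. Of all tested genes, 29.1% lie apart in this way upward.

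The libraries held 14024353 to 18821730 counts, with TMM factors of 0.845 (SC saline 2) to 1.224. As bulk tissue was sequenced, fewer cells of a type and less RNA per cell cannot be told apart. Of 10 macrophage markers, 8 were higher and none lower after ID gel, and 4 were higher and 1 lower after SC gel, and their summed level was 738 to 1850 CPM in ID saline, 1060 to 1410 in SC saline, 6440 to 7160 in ID gel and 1120 to 2730 in SC gel. Keratinocyte markers were lower after ID gel (6 of 6) and mostly higher after SC gel (4 of 6, with 1 lower), with summed levels of 1370 to 5100 CPM in ID gel and 12200 to 18600 in SC gel. Neutrophil markers were higher in 2 and lower in 2 of 6 tested after ID gel and higher in 4 and lower in 1 after SC gel, and dendritic cell markers were higher in 7 of 8 and 2 of 8, with none lower. Against the other saline group, 4 neutrophil markers were higher and 2 lower after ID gel, and 4 were higher and none lower after SC gel. Dendritic cell markers were then higher in 5 of 8 at each site, with medians of 0.67 (ID) and 0.71 (SC). These marker counts stand beside 36.6% of all tested genes called higher and 37% lower after ID gel. After SC gel the shares were 24.7% and 26.1%. Skeletal muscle markers summed to 25100 to 63000 CPM in saline libraries and to 9.63 to 14300 CPM in gel libraries. The part of these shifts in the levels of the 10 genes was not tested.

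Among the surface receptors, Tlr2, the receptor for bacterial lipoproteins (chr2:169197419-169206630 in the table), changed most. Its level was 6.83 to 15.9 CPM in the 6 ID saline libraries (median 8.93) and 139 to 279 CPM in the 6 ID gel libraries (median 213). In SC saline it ran from 9.03 to 12.1 CPM (median 9.91) and in SC gel from 11.6 to 32.7 CPM (median 19.2). In CPM the ID groups did not overlap, whereas the lowest SC gel library lay inside the range of SC saline. By deposited FPKM, which uses no TMM factor, SC gel (2.21 to 5.43) and SC saline (1.31 to 1.87) did not overlap. Tlr2 rose 20.8-fold at the ID site (log2 4.38 ± 0.24 SE, adjusted p = 1.05e-12) and 2-fold at the SC site (1.00 ± 0.22, adjusted p = 0.000682). The 2 effects differed by 3.38 ± 0.32 on the log2 scale (adjusted p = 2.03e-08).

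Cd14 (chr18:28335340-28337261), which hands lipopolysaccharide to Tlr4 and also assists Tlr2, moved in the same groups. It was at 26 to 63.3 CPM in ID saline (median 40.2) and at 403 to 750 CPM in ID gel (median 635). SC saline lay at 29.8 to 46.7 CPM (median 40.1) and SC gel at 51.3 to 111 CPM (median 72.1). Gel and saline libraries did not overlap at either site, a pattern that 29.1% of tested genes showed upward at the ID site and 11% at the SC site. The rise was 14.3-fold after ID gel (log2 3.84 ± 0.25, adjusted p = 4.61e-12) and 1.97-fold after SC gel (0.98 ± 0.22, adjusted p = 0.000854), and the effects differed by 2.86 ± 0.32 (adjusted p = 1.6e-07).

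Tlr4, the receptor for lipopolysaccharide (chr5:80145826-80159628), changed far less than its co-receptor. Its levels were 12 to 25.7 CPM in ID saline (median 18.7), 33.6 to 41.3 CPM in ID gel (median 38.1), 23 to 31.8 CPM in SC saline (median 25.7) and 17.5 to 28.7 CPM in SC gel (median 20.4). In CPM, ID gel stood apart from every other group, and the SC groups overlapped. By deposited FPKM, ID gel (8.88 to 10.6) overlapped with SC gel (5.61 to 9.38). Tlr4 rose 1.97-fold after ID gel (log2 0.97 ± 0.15, adjusted p = 3.68e-06), and the value after SC gel was -0.28 ± 0.15 (adjusted p = 0.122). The difference of the effects was 1.26 ± 0.21 (adjusted p = 2.69e-05). With the other saline group as control, the ID value was 0.52 (adjusted p = 0.0033) and the SC value 0.18 (adjusted p = 0.341), so the size of the first and the sign of the second depend on the control. ID saline and SC saline differed by -0.46 ± 0.15 in Tlr4 (adjusted p = 0.0849).

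Tlr5, the flagellin receptor (chr13:94634801-94657738), was at 13.1 to 33.6 CPM in ID saline (median 20.8) and at 51.2 to 82.6 CPM in ID gel (median 65.4). It was at 22.6 to 40.8 CPM in SC saline (median 24.6) and at 19.9 to 31.1 CPM in SC gel (median 22.6). The ID groups were separate, and the SC groups overlapped, with the highest SC saline value in replicate 2. Tlr5 rose 2.95-fold after ID gel (log2 1.56 ± 0.21, adjusted p = 3.75e-07). The SC value of -0.18 ± 0.20 (adjusted p = 0.479) was 0.10 without SC saline replicate 2. The difference between sites was 1.74 ± 0.29 (adjusted p = 2.13e-05).

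Of the endosomal receptors, Tlr7 and Tlr8, which recognise single-stranded RNA and neighbour each other on the X chromosome (chrX:27027425-27054754 and chrX:27091778-27116549), changed most. Tlr7 was at 13.6 to 43.7 CPM in ID saline (median 22.4), 143 to 267 CPM in ID gel (median 197), 25.6 to 37.5 CPM in SC saline (median 27.9) and 18.4 to 54.4 CPM in SC gel (median 33.2). Every ID gel library exceeded all others, while the SC gel libraries lay on both sides of the SC saline range. Tlr7 rose 8.15-fold after ID gel (log2 3.03 ± 0.26, adjusted p = 5.19e-10), and its SC value was 0.23 ± 0.25 (adjusted p = 0.462). The difference was 2.80 ± 0.36 (adjusted p = 8.41e-07).

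Tlr8 was at 17.8 to 50.2 CPM in ID saline (median 30.1), 97.2 to 134 CPM in ID gel (median 120), 30.4 to 45.7 CPM in SC saline (median 32.6) and 31.4 to 57.8 CPM in SC gel (median 48.8). The ID groups did not overlap, and 4 of 6 SC gel libraries exceeded every SC saline library. Tlr8 rose 3.73-fold after ID gel (log2 1.90 ± 0.19, adjusted p = 5.79e-09). At the SC site it was at 0.43 ± 0.19 (adjusted p = 0.06), just short of the threshold, and it passed without SC saline replicate 2 (0.65, adjusted p = 0.00801) and without SC gel replicate 3 or 6 (0.54, adjusted p = 0.0179, and 0.48, adjusted p = 0.0448). It also passed with RLE size factors (0.46, adjusted p = 0.0452) and with library totals alone (0.66, adjusted p = 0.00168). The effects of the sites differed by 1.47 ± 0.27 (adjusted p = 5.96e-05).

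Tlr9, the receptor for unmethylated CpG DNA (chr8:106864680-106868796), was the least abundant of the 10, at 0.976 to 2.49 CPM in ID saline (median 1.63) and 2.3 to 5.25 CPM in ID gel (median 3.27). SC saline held 1.12 to 2.85 CPM (median 1.84) and SC gel 0.511 to 2.06 CPM (median 1.66). These levels rest on 9 to 71 counts per library. The lowest ID gel library fell just inside the range of ID saline, and the SC groups overlapped. Tlr9 rose 1.99-fold after ID gel (log2 0.99 ± 0.28, adjusted p = 0.00256), its SC value was -0.35 ± 0.28 (adjusted p = 0.314), and the difference was 1.34 ± 0.39 (adjusted p = 0.00597).

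Tlr3, which recognises double-stranded RNA (chr16:46822039-46836545), showed the smallest change. Its levels were 12.6 to 18.6 CPM in ID saline (median 16.7), 16.9 to 26.5 CPM in ID gel (median 20.1), 15.5 to 22.6 CPM in SC saline (median 17.8) and 12.9 to 22.5 CPM in SC gel (median 15.5). All 4 groups overlapped. The call at the ID site (log2 0.32 ± 0.13, adjusted p = 0.032) was lost with RLE size factors (0.29, adjusted p = 0.0625), with the DESeq2 Wald test (0.29, adjusted p = 0.0581), with library totals alone (0.18, adjusted p = 0.209) and without ID gel replicate 3 (0.23, adjusted p = 0.115), ID gel replicate 6 (0.31, adjusted p = 0.0527), ID saline replicate 3 (0.29, adjusted p = 0.0687) or ID saline replicate 4 (0.25, adjusted p = 0.0934). The ID call was also lost against SC saline (0.16, adjusted p = 0.266) and with gel replicates 4 to 6 alone (0.24, adjusted p = 0.135). By limma on log2(FPKM + 1) it was lost as well (0.13, adjusted p = 0.232), and on log2(FPKM + 0.1) (0.17, adjusted p = 0.231). The SC value was -0.15 ± 0.13 (adjusted p = 0.361). The difference of 0.47 ± 0.19 (adjusted p = 0.0357) was 0.26 without SC saline replicate 2 (adjusted p = 0.24) and 0.08 with library totals alone (adjusted p = 0.728), and the call was lost on leaving out any 1 of 17 of the 24 libraries.

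Myd88 (chr8:119074437-119079415), the adaptor shared by most of these receptors, was at 26.6 to 38.8 CPM in ID saline (median 31), 78.8 to 100 CPM in ID gel (median 95.7), 31.3 to 45.5 CPM in SC saline (median 33.2) and 40.2 to 59.2 CPM in SC gel (median 44.3). In CPM the ID groups were far apart, and at the SC site 3 of 6 gel libraries exceeded the highest saline library, replicate 2. By deposited FPKM, which uses no TMM factor, SC gel (14.5 to 20.4) and SC saline (9.59 to 12.4) did not overlap. Myd88 rose 2.94-fold after ID gel (log2 1.55 ± 0.11, adjusted p = 2.59e-11) and 1.34-fold after SC gel (0.42 ± 0.11, adjusted p = 0.00308), or 0.63 on the log2 scale without SC saline replicate 2. The difference was 1.14 ± 0.16 (adjusted p = 2.21e-06).

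Clec7a (chr4:162902732-162913897) had the largest fold change at both sites. It was at 3.77 to 7.13 CPM in ID saline (median 4.7) and 152 to 254 CPM in ID gel (median 230), with no overlap. SC saline held 4.04 to 6.57 CPM (median 5.28), and SC gel libraries 1 to 6 held 7.22, 33.3, 8.11, 45, 24.1 and 16.1 CPM. All SC gel values lay above SC saline, but they spread more than 6-fold among themselves. Clec7a rose 42.2-fold after ID gel (log2 5.40 ± 0.37, adjusted p = 1.06e-11) and 4.19-fold after SC gel (2.07 ± 0.33, adjusted p = 1.84e-05), a difference of 3.33 ± 0.46 (adjusted p = 2.45e-06).

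**Figure D2:**
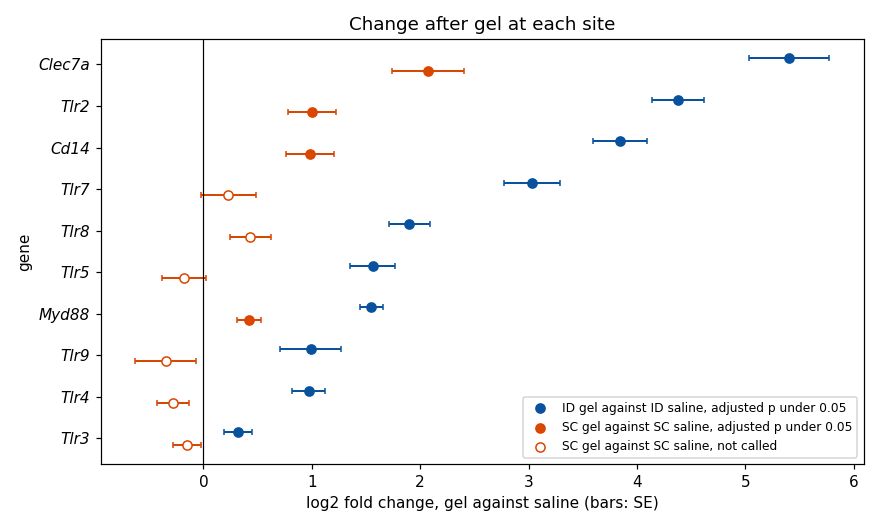
Log2 fold change of each gene, gel against saline, at the ID and SC sites, with bars for the SE. Filled points have an adjusted p under 0.05: all 10 at the ID site, from 0.32 for Tlr3 to 5.40 for Clec7a, and 4 at the SC site.

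The saline groups, which serve as baselines, were close for these genes. None of the 10 was called between ID saline and SC saline by edgeR's quasi-likelihood test, against a background of 1.67% of genes called higher in ID saline and 1.54% lower. At an unadjusted p under 0.05 there was 1 of 10, Tlr4, which the DESeq2 Wald test (-0.46, adjusted p = 0.0483) and limma voom (-0.52, adjusted p = 0.0264) called lower in ID saline, as did the edgeR fit without ID saline replicate 1 (-0.56, adjusted p = 0.0401). Between the gel groups all 10 were called higher in ID gel than in SC gel, against 40.1% of genes higher and 28% lower. In CPM with TMM factors, 9 of the 10 had no overlap, as did 27.4% of tested genes in that direction. By deposited FPKM, which uses no TMM factor, Tlr4 and Tlr9 overlapped as well. Tlr4 was at 8.88 to 10.6 FPKM in ID gel and up to 9.38 in SC gel. Tlr9 was at 0.652 to 1.4 FPKM in ID gel and up to 0.727 in SC gel. Log2 differences between the gel groups ran from 0.31 ± 0.13 for Tlr3 (adjusted p = 0.0398) to 3.36 ± 0.23 for Tlr2 (adjusted p = 7.8e-11). These comparisons use the same libraries as those above. The Tlr3 value turned to -0.04 with library totals alone, and its call was lost without any 1 of 10 of the 12 gel libraries.

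Levels of different genes were compared by deposited FPKM, which accounts for transcript length. In ID saline, Cd14 was highest (22.5 ± 7.14 FPKM, SD, n = 6) and Tlr9 lowest (0.503 ± 0.136 FPKM), and Tlr8, Tlr4, Tlr7, Tlr3 and Tlr5, from 5.94 to 3.31 FPKM, overlapped with their neighbours in the order. SC saline had the same genes at both ends, Cd14 at 21.1 ± 3.5 FPKM and Tlr9 at 0.577 ± 0.165 FPKM. In ID gel the order changed: Cd14 (292 ± 66.2 FPKM) was followed by Clec7a (77.4 ± 14.2 FPKM), then by Tlr7 (32.8 ± 7.33 FPKM), Tlr2 (29.5 ± 6.64 FPKM) and Myd88 (26.7 ± 2.16 FPKM). Tlr2 overlapped with both Tlr7 and Myd88, whereas Tlr7 did not overlap with Clec7a, nor Myd88 with Tlr8 (20.1 ± 2.15 FPKM). Clec7a and Tlr2 had been the eighth and ninth of the 10 in both saline groups. In SC gel, Cd14 (48.5 ± 14 FPKM) and Myd88 (17.2 ± 2.26 FPKM) led without overlap, and Tlr8 (10 ± 1.59 FPKM) and Clec7a (9.87 ± 6.22 FPKM) came next, each above the other in 3 of 6 libraries.

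The makeup of the 7 receptor transcripts also shifted. As a share of their summed FPKM within each library, which does not depend on the scaling between libraries, Tlr2 made up 4.97 to 7.2% in ID saline and 22.8 to 32.3% in ID gel. Tlr7 went from 15.7 to 21.4% in ID saline to 27.2 to 34.8% in ID gel, while Tlr4 was at 19.4 to 25.2% in ID saline and 7.51 to 12.4% in ID gel, and Tlr3 at 9.8 to 17.5% and 2.73 to 4.66%. The ID groups did not overlap in the share of any of these 4 receptors. At the SC site Tlr2 made up 4.1 to 6.61% with saline and 7.86 to 12.4% with gel. The share of Tlr8 was at 20.7 to 23% in SC saline and 25.9 to 31.5% in SC gel, without overlap, whereas it was at 21.9 to 26.1% in ID saline and 15.7 to 23.5% in ID gel, with overlap. The summed level of the 7 receptors was 24.7 ± 7.06 FPKM in ID saline and 106 ± 13.4 in ID gel, against 28.6 ± 2.14 in SC saline and 36.4 ± 6.13 in SC gel.

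**Figure D3:**
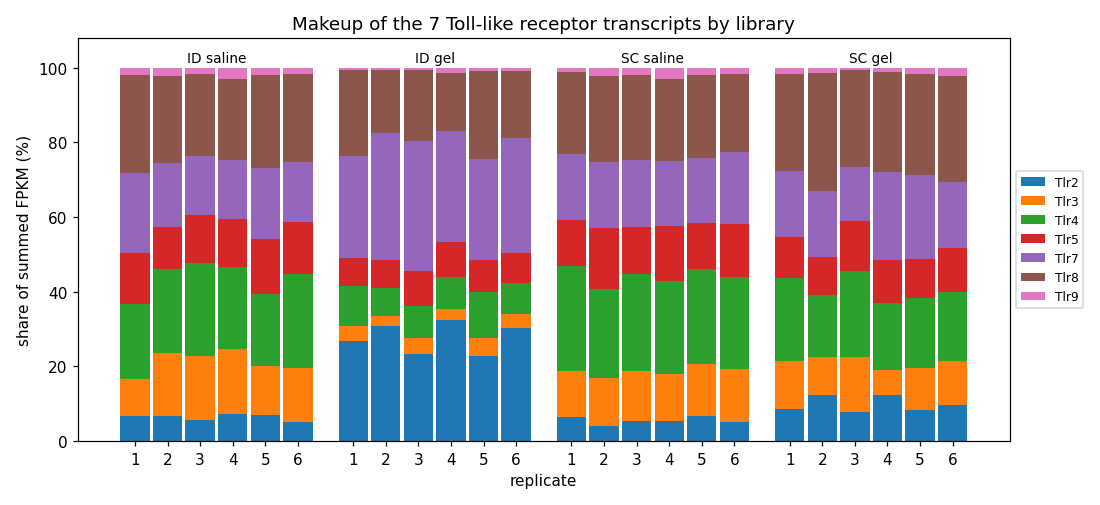
Share of each of the 7 Toll-like receptors in their summed FPKM, 1 bar per library, by group. Tlr2 and Tlr7 widen in the ID gel libraries, where Tlr2 takes 22.8 to 32.3% against 4.97 to 7.2% in ID saline.

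Macrophage markers varied between the libraries of SC gel, and the 10 genes were read beside them. The geometric mean of Cd68, Csf1r, Mpeg1 and Ptprc, genes of macrophages and other leukocytes, was 40 to 97 CPM in ID saline, 64.3 to 86.7 in SC saline, 838 to 1080 in ID gel and 93.9 to 357 in SC gel. It was 95.9, 318, 93.9, 357, 209 and 177 CPM in SC gel libraries 1 to 6, and the 4 libraries with the highest values came in the same order for Clec7a. Tlr2, Cd14 and Myd88 also had their 2 highest SC gel values in replicates 4 and 2, whereas Tlr3 and Tlr4 were highest in replicate 1.

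On the log2 scale, the ratio of Clec7a to this mean was -3.57 ± 0.41 (SD) in ID saline and -2.15 ± 0.30 in ID gel, without overlap. For Tlr2 the ratio was -2.63 ± 0.16 and -2.21 ± 0.29, with overlapping libraries, and for Cd14 it was -0.59 ± 0.12 and -0.71 ± 0.30. The ratio of Tlr7 was lower in ID gel (-2.26 ± 0.23) than in ID saline (-1.36 ± 0.19) against these 4 markers. Tlr8 went from -1.01 ± 0.16 to -3.03 ± 0.15 and Tlr4 from -1.68 ± 0.22 to -4.65 ± 0.18. Tlr3 had the largest fall among the 10, from -1.88 ± 0.34 to -5.56 ± 0.24. At the SC site, Tlr2 went from -2.79 ± 0.21 with saline to -3.23 ± 0.54 with gel, and Cd14 from -0.84 ± 0.24 to -1.29 ± 0.58. Myd88 went from -1.02 ± 0.09 to -1.98 ± 0.70 there, and Clec7a rose from -3.75 ± 0.24 to -3.35 ± 0.28. The SC libraries overlapped for each of these genes. The 4 markers do not stand for the whole list of 10, whose median change after ID gel was 1.55: Mpeg1 changed by 5.62, Cd68 by 5.01, Ptprc by 3.51 and Csf1r by 1.63, while Adgre1 changed by 0.78 and the complement genes C1qa and C1qb stood at 0.09 and 0.04 (adjusted p = 0.723 and 0.875). Tlr7 (3.03) and Tlr8 (1.90) lay above that median of 1.55, so the direction of their ratios depends on the markers chosen. The same holds for the other genes. After ID gel, Clec7a (5.40) lay below Mpeg1 and above Cd68, and Tlr2 (4.38) lay below Cd68 and above Ptprc. Tlr4 (0.97) lay below Csf1r and above Adgre1, and Tlr3 (0.32) below Adgre1 and above C1qa. After SC gel, Clec7a (2.07) lay below Mpeg1 (2.66) and Cd68 (2.35) and above Ptprc (1.27) and Csf1r (0.13). The ratios were described without a test, and they cannot tell a change within cells from a change in the kinds of cells.

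**Figure D4:**
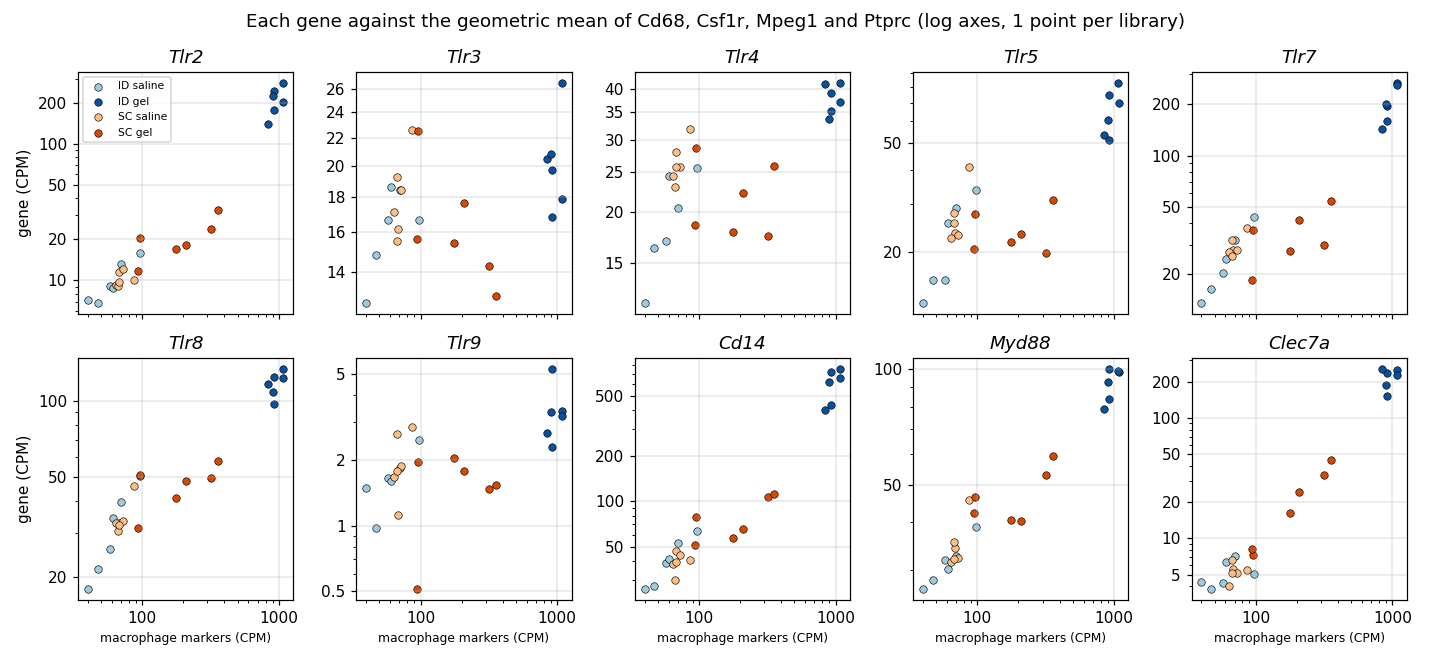
CPM of each gene against the geometric mean CPM of Cd68, Csf1r, Mpeg1 and Ptprc on log axes, with 1 point per library. The ID gel libraries stand at 838 to 1080 CPM of the markers, and the SC gel libraries spread from 93.9 to 357 CPM.

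The genes with the most similar profile were sought by the root mean square difference of centred log2 CPM over the 24 libraries, among 12549 genes. Tlr2, whose own profile spread by 1.83, was nearest to Cd14 (0.25) and then to Hmox1, which degrades heme (0.27). Cd14 was nearest to Hmox1 (0.24) and then to Tlr2 (0.25). For Clec7a the nearest genes were Lst1 (0.35) and the endolysosomal transporter Slc15a3 (0.36), and for Tlr7 they were Ncf4, a subunit of the phagocyte NADPH oxidase (0.23), and Tp53i11 (0.26). Tlr8 lay nearest to Arhgap18 (0.15) and Rgl1 (0.17), Tlr5 to Ly6e (0.22) and Csf1r, the receptor for macrophage colony-stimulating factor (0.23), and Tlr4 to Fndc3b (0.17) and the kinase Fyn (0.18). Myd88 was nearest to Pacsin2 (0.10) and Lrrc8d (0.11). Tlr3, whose own profile spread by only 0.25, was nearest to Zfr and Lrch3 (both 0.16).

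Other Toll-like receptors in the table were also tested. For these and the lists below, the background was 36.6% of all tested genes called higher and 37% lower after ID gel. After SC gel it was 24.7% and 26.1%. After ID gel all 5 tested (Tlr1, Tlr6, Tlr10, Tlr11 and Tlr12) were called higher, with a median of 2.22, and after SC gel none was higher and 1, Tlr11, was lower. Tlr6, which pairs with Tlr2, was at 3.77 to 5.63 CPM in ID saline and 22.5 to 32.7 CPM in ID gel, a rise of 2.54 ± 0.18 (adjusted p = 2.79e-11), and Tlr1, its other partner, rose by 2.22 ± 0.42 (adjusted p = 5.26e-05). Tlr10 and Tlr12 rose by 2.14 ± 0.49 (adjusted p = 0.000465) and 3.13 ± 0.59 (adjusted p = 5.03e-05) from means under 1 CPM. At the SC site Tlr1 was at -0.38 ± 0.44 (adjusted p = 0.489), Tlr6 at 0.25 ± 0.18 (adjusted p = 0.25), Tlr10 at 0.35 ± 0.50 (adjusted p = 0.586) and Tlr12 at 0.18 ± 0.56 (adjusted p = 0.808). Tlr6 was called higher there with library totals alone (0.47, adjusted p = 0.0181), by log2(FPKM + 1) (0.25, adjusted p = 0.039), against ID saline (0.62, adjusted p = 0.00657) and without SC gel replicate 3 (0.39, adjusted p = 0.0473). The handling of reads shared by the similar genes Tlr1, Tlr6 and Tlr10 is not given.

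Tlr11 differed between the saline groups themselves, at 0.286 to 0.936 CPM in ID saline and 2.25 to 3.25 CPM in SC saline (log2 -2.17, adjusted p = 0.00868). Its rise after ID gel (1.42 ± 0.44, adjusted p = 0.00614) and fall after SC gel (-1.56 ± 0.41, adjusted p = 0.00283) were -0.74 (adjusted p = 0.0919) and 0.61 (adjusted p = 0.273) against the other saline group.

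Proteins that carry or assist the receptors changed at both sites. Of 12 tested, 11 were higher and 1 lower after ID gel (median 2.93), and 8 were higher and 1 lower after SC gel (median 0.89). The integrin chain Itgb2, which pairs with Itgam, rose by 6.09 ± 0.48 (adjusted p = 8.61e-11) and 2.83 ± 0.41 (adjusted p = 5.63e-06), and Slc15a3 by 5.39 ± 0.43 (adjusted p = 1.08e-10) and 2.49 ± 0.39 (adjusted p = 1.4e-05). Hmgb1, a nuclear protein that can act as a damage signal, fell by 1.04 ± 0.13 on the log2 scale after ID gel (adjusted p = 1.11e-07). Its call after SC gel (-0.38 ± 0.12, adjusted p = 0.0139) was lost with library totals alone (-0.15, adjusted p = 0.403), without SC saline replicate 2 (-0.29, adjusted p = 0.07) and without SC saline replicate 5 (-0.25, adjusted p = 0.0859). Named for their roles after their values were seen, Ly96, the partner of Tlr4 on the cell surface, rose by 2.57 and 0.92 (adjusted p = 2.62e-11 and 0.000195), and Unc93b1, which brings the endosomal receptors to their compartment, by 3.29 and 1.26 (adjusted p = 6.46e-11 and 0.000128).

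Downstream of the receptors, adaptors and kinases changed by less: 14 of 16 tested were higher and none lower after ID gel (median 0.68), and 10 were higher and 2 lower after SC gel (median 0.30). With library totals alone 1 gene was lower at the ID site, and 12 were higher and 1 lower at the SC site. Ticam2, the bridging adaptor of Tlr4, rose by 3.33 ± 0.19 (adjusted p = 1.29e-12) and 0.91 ± 0.18 (adjusted p = 0.000198), and the kinase Irak2 by 1.78 ± 0.13 (adjusted p = 3.48e-11) and 0.68 ± 0.13 (adjusted p = 0.000155). Tab2, which links the receptors to the kinase Map3k7, fell by 0.54 ± 0.09 on the log2 scale after SC gel (adjusted p = 1.7e-05). Tirap, the sorting adaptor of Tlr2 and Tlr4, was called lower after SC gel (-0.33 ± 0.10, adjusted p = 0.0105), a call lost with library totals alone (-0.11, adjusted p = 0.443) and without SC saline replicate 2 (-0.19, adjusted p = 0.164) or replicate 4 (-0.21, adjusted p = 0.0634).

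Of 10 NF-kappaB and IRF factors, 9 were higher after ID gel (median 1.95) and 5 after SC gel (median 0.50), with none lower, although 1 was lower at the ID site with RLE size factors, library totals, FPKM or the other saline group. At the SC site 8 were higher with library totals and 7 by FPKM, against ID saline or without SC saline replicate 2. Irf8, a factor of myeloid cells, rose by 3.11 ± 0.19 (adjusted p = 3.33e-12) and 1.19 ± 0.18 (adjusted p = 1.26e-05). Irf1 rose by 3.02 ± 0.26 after ID gel (adjusted p = 2.84e-10), and Irf5 by 1.21 ± 0.17 after SC gel (adjusted p = 3.84e-06). Among 15 negative regulators, 13 were higher and 1 lower after ID gel (median 1.32) and 8 were higher after SC gel (median 0.48). The SC count was 10 with RLE size factors, 12 with library totals alone and 11 without SC saline replicate 2. The inhibitory receptor Cd200r1 rose by 3.53 ± 0.24 (adjusted p = 1.25e-11) and 1.26 ± 0.23 (adjusted p = 8.68e-05), and the transcription factor Atf3 rose by 3.72 ± 0.41 after ID gel (adjusted p = 2e-08). Nfkbie, an inhibitor of NF-kappaB, rose by 1.17 ± 0.21 after SC gel (adjusted p = 8.52e-05), and Sarm1 fell by 1.42 ± 0.29 on the log2 scale after ID gel (adjusted p = 0.000119).

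The chain of Clec7a and related lectins was higher at both sites, with 11 of 11 tested genes called after ID gel (median 2.94) and 10 of 11 after SC gel (median 1.13). Clec4e, also called Mincle, was at 0.0651 to 1.26 CPM in ID saline and 95.9 to 239 CPM in ID gel (7.68 ± 0.51, adjusted p = 8.4e-12), and at 0.706 to 1.52 CPM in SC saline and 1.13 to 9.88 CPM in SC gel (2.20 ± 0.48, adjusted p = 0.000584). Clec4d rose by 6.37 ± 0.40 (adjusted p = 4.17e-12) and 2.29 ± 0.37 (adjusted p = 2.29e-05). Named after its values were seen, Syk, the kinase beneath Clec7a, rose by 2.83 and 0.91 (adjusted p = 1.3e-11 and 0.000283).

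Cytosolic sensors of nucleic acids and of bacterial cell walls were higher in 9 of 11 and lower in 1 after ID gel (median 1.14), and higher in 2 and lower in 1 after SC gel (median 0.40). Of all tested genes, 24.7% were called higher and 26.1% lower after SC gel. The count of 2 higher at the SC site was 4 with RLE size factors, 6 with library totals alone or FPKM and 5 without SC saline replicate 2. Sting1, the adaptor for cytosolic DNA, rose by 2.87 ± 0.24 after ID gel (adjusted p = 2.66e-10) and Dhx58, an RNA helicase, by 2.75 ± 0.25 (adjusted p = 8.52e-10). Nod2 rose by 0.82 ± 0.18 after SC gel (adjusted p = 0.000512), and Nod1 by 0.50 ± 0.12 (adjusted p = 0.00137), or by 0.19 against ID saline (adjusted p = 0.178). Mavs, the mitochondrial adaptor of the RNA helicases, fell at both sites, by 0.62 ± 0.11 (adjusted p = 3.79e-05) and 0.77 ± 0.11 (adjusted p = 7.64e-06) on the log2 scale.

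Among genes known as targets of NF-kappaB, 16 of 16 tested were higher after ID gel (median 3.34) and 7 after SC gel (median 1.01), with none lower. The SC count was 10 with library totals alone or against ID saline, and 5 without SC saline replicate 2. Icam1, an adhesion molecule for leukocytes, rose by 3.82 ± 0.24 (adjusted p = 4.74e-12) and 1.18 ± 0.22 (adjusted p = 0.000135), Cd40 by 3.39 ± 0.29 after ID gel (adjusted p = 3.53e-10), and Nfkbiz by 1.03 ± 0.11 after SC gel (adjusted p = 7.07e-08). Of 8 IRF targets, 7 were higher after ID gel (median 1.92) and 2 after SC gel (median 0.41), or 5 against ID saline (median 0.79). The 2 of 8 stand beside 24.7% of all tested genes called higher after SC gel. The chemokine Cxcl10 rose by 5.19 ± 0.65 (adjusted p = 1.84e-07) and 2.88 ± 0.65 (adjusted p = 0.000794), and Oasl by 3.91 ± 0.33 (adjusted p = 3.1e-10) and 1.05 ± 0.32 (adjusted p = 0.00814).

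**Figure D5:**
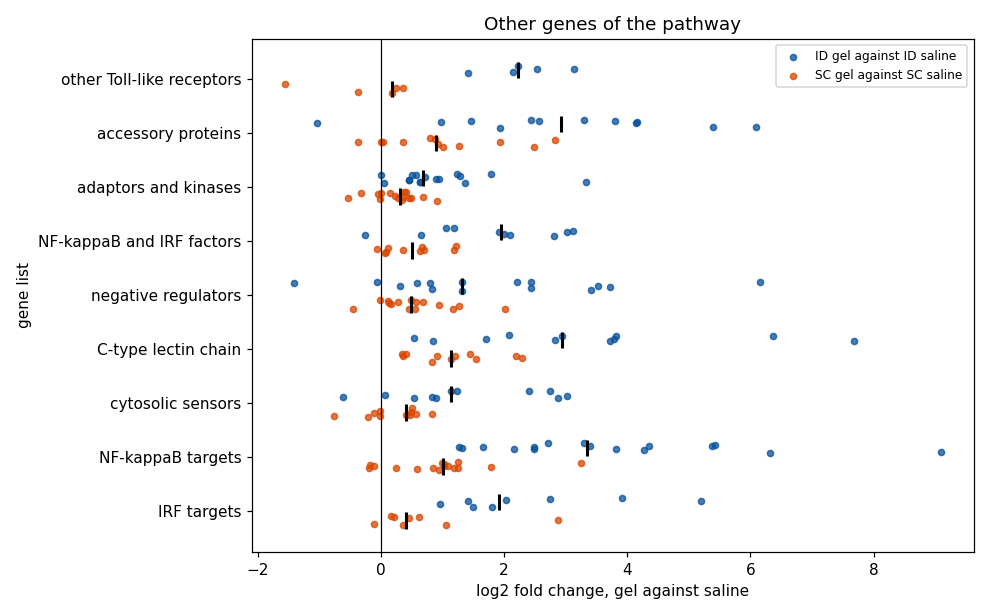
Log2 fold change of the tested genes of 9 pathway lists at the ID and SC sites, with 1 point per gene and a bar at the median of the list. Medians run from 0.68 to 3.34 at the ID site and from 0.18 to 1.13 at the SC site.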

How the data were processed

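Bulk RNA sequencing libraries of rat skin were analysed from 1 deposited table. Per the file headers it holds a read count and an FPKM value per gene and library, and the deposited FPKM values were each count divided by gene length and library total, at a ratio of 0.999675 to 0.999998. Per the submitters' processing notes the authors used DESeq2 1.12.4, StringTie 1.3.3b, FastQC 0.11.2 and Trimmomatic 0.36, with the build Rnor_6.0. The sources used here do not give the aligner, the counter, its strand setting or its handling of shared reads. Some genes lie on unplaced sequences with names of another build, so gene coordinates are those of the table with an uncertain build. An emptied line (1 in the table) is not reported.

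Counts were tested with edgeR 4.0.16 (limma 3.58.1, R 4.3.3): filterByExpr by group, TMM factors, 1 mean per group over 24 libraries (20 residual degrees of freedom), and edgeR's quasi-likelihood test, adjusted by Benjamini-Hochberg, at a threshold of 0.05. Each SE is the absolute log2 change divided by the root of F. A run on simulated data changed a limited set of genes in ID gel alone, so it cannot judge the scaling where most genes change. The members and lists were chosen with earlier results of these data known. Beside the 10 members, up to 2 genes per direction and site were named from each list (adjusted p under 0.05, mean log2 CPM of at least 1), all tested genes of lists with at most 5, and the 2 nearest genes per member, which for Tlr9 are not reported here. Of 174 list entries 6 had no match. Alternatives were DESeq2 1.42.0, limma voom, RLE factors, library totals, no filter, 10 counts in 12 libraries, only the groups compared, a replicate block, limma on log2 FPKM (pseudocounts 1 and 0.1, at least 1 FPKM in 6 libraries, or no filter), the other saline group, gel replicates 1 to 3 or 4 to 6, and each library left out. Motifs were searched in RefSeq windows of build GRCr8. Numbers of replicates were not used as pairs.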

Additional observations from a re-analysis of the deposited data

Results flagged for a closer look

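The gel effect differed between the ID and SC sites for all 10 genes by the test of the difference itself (edgeR's quasi-likelihood test, ID minus SC, log2 scale): 3.38 for Tlr2, 0.47 for Tlr3, 1.26 for Tlr4, 1.74 for Tlr5, 2.80 for Tlr7, 1.47 for Tlr8, 1.34 for Tlr9, 2.86 for Cd14, 1.14 for Myd88 and 3.33 for Clec7a.

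In 5 of 40 sets of 6 libraries, 1 library stood far from the others. Chance gives about 1 in 20 for independent sets of normally spread values. The 40 sets are 10 genes in the same 24 libraries, so the count of 5 cannot be judged by that rate. SC saline replicate 2, the library with the lowest TMM factor, was high in Tlr5 (40.8 CPM, the next at 27.9), Tlr8 (45.7 CPM, the next at 33.3) and Myd88 (45.5 CPM, the next at 35.5). By deposited FPKM, which uses no TMM factor, its values were 5.2 for Tlr5 (others 3.22 to 3.91), 7.35 for Tlr8 (others 5.71 to 6.78) and 12.4 for Myd88 (others 9.59 to 11.6). Tlr9 was high in ID gel replicate 4 (5.25 CPM, the next at 3.37) and low in SC gel replicate 3 (0.511 CPM, the next at 1.48).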

How the results depend on the processing

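Over the alternatives, 1252 values kept their direction and side of the threshold, 54 lost a call, 14 gained one and 30 changed sign. No sign change occurred after ID gel or in the difference between sites. The calls of Clec7a, Tlr2, Cd14 and Myd88 held at both sites under each alternative that tested them. Tlr3 lost its calls most often. Between ID gel and SC gel, Tlr3 was -0.04 with library totals and -0.02 by log2(FPKM + 1), log2(FPKM + 0.1) and log2(FPKM + 1) without a filter. After SC gel it was 0.10 with totals, 0.06 by log2(FPKM + 1) with or without the filter, 0.07 by log2(FPKM + 0.1), 0.01 against the other saline group, and -0.23 to 0.05 with each library left out. After SC gel, Tlr5 was 0.07 with totals, 0.05 by log2(FPKM + 1) with or without the filter, 0.07 by log2(FPKM + 0.1), 0.12 against the other saline group, and -0.23 to 0.10 with each library left out. Tlr4 was 0.18 against the other saline group and Tlr7 -0.04 with gel replicates 1 to 3. Between the saline groups, Cd14 was -0.04 by voom and Tlr2 0.01 with totals. With each library left out, Cd14 ran from -0.10 to 0.16, Clec7a from -0.17 to 0.03 and Tlr2 from -0.20 to 0.06 there. The count of members called between the saline groups was 1 by DESeq2, 1 by voom and 0 to 1 with each library left out. The cause was not tested.

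Scaling moved the centre of all genes. After SC gel the median was 0.225 with library totals and 0.191 by log2(FPKM + 1), against -0.004 with TMM factors, and 73.5% and 74.6% of called genes were higher, against 48.7%. Without SC saline replicate 2 it was 64.5%. The median difference between sites was -0.258 with totals, against 0.122, and 30.2% of called genes were above 0, against 58.8%. In the comparison of the gel groups these shares were 32.7% and 58.9%. Relative to these medians, Tlr3 and Tlr5 after SC gel were below the centre under both scalings. Between the saline groups 475 genes were called, against 1038 by DESeq2, 1600 by voom, 316 with no filter and 132 without SC saline replicate 2. With the FPKM filter 9 of the 10 genes were tested, as Tlr9 fell below it.

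Replicate numbers were not taken to pair the samples. For each gene, log2 CPM was centred on the mean of its group, and these deviations were correlated between libraries. Same-numbered ID gel and ID saline libraries gave -0.166 to 0.131, and SC gel and SC saline libraries -0.172 to 0.275. The saline groups gave -0.124 to 0.379 and the gel groups -0.132 to 0.421, each with 4 of 6 pairs over 0.1, short of every pair. Of the ID gel libraries, 3 of 6 correlated best with the SC gel library of their own number, and other pairs averaged -0.043. For the saline groups these values were 2 of 6 and -0.026. With the replicate block the counts of members called were 10 (ID), 4 (SC), 10 (difference), 0 (saline) and 10 (gel groups). Depth limited Tlr9 most, at 9 to 71 counts per library.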
